A study of Danio rerio with 3 samples.

Results

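The cells described here lacked any count of cdh5 and either held or lacked transcripts of kdrl. They came from 2 libraries of single cells, DP 1 and DP 2, which the deposited cell table lists as kdrl+spi2+ cells of the AGM, the region of the embryonic trunk around the dorsal aorta. Zebrafish embryos at 36 hours post fertilization carried spi2:Gal4;UAS:GFP, in which spi2 sequences drive GFP through Gal4, and kdrl:mCherry. The sort therefore read reporter proteins and the counts read RNA, made by STRT-seq, a plate-based method that amplifies the RNA of 1 sorted cell per well. Members had at least 500 detected genes and 20000 counts, no cdh5 count, and npsn, a neutrophil granule gene, under 500 CPM (counts scaled to 1000000 per cell). The count table held 93 cells and 63 met the rule, 39 of DP 1 and 24 of DP 2. The kdrl-positive side, with 1 or more kdrl counts, held 20 cells, 9 of DP 1 and 11 of DP 2, and the kdrl-negative side held 43, 30 of DP 1 and 13 of DP 2. Among the other cells of the same depth, 10 held cdh5 and 6 were npsn-high without cdh5. The SP library, labelled kdrl-spi2+, was not analysed here.

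The gene kdrl encodes a zebrafish receptor for vascular endothelial growth factor and is a standard marker of vessels. The gene cdh5 encodes VE-cadherin, the adhesion protein that holds endothelial cells together. In the embryonic trunk, hemogenic endothelium in the floor of the dorsal aorta releases blood stem and progenitor cells, which lose endothelial junctions as they leave and keep blood regulators such as runx1 and myb. The question asked here was whether cells that hold kdrl RNA without cdh5 also hold other endothelial genes.

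At equal depth the kdrl-positive cells held no more endothelial genes at the median than the kdrl-negative cells, and 1 DP 2 cell was an exception. The median was 3 endothelial genes on both sides of DP 1 and 4 on both sides of DP 2, against 7.5 and 15.5 in the cdh5-positive cells. At full depth, where the kdrl-positive cells were deeper, the medians differed in DP 1. They were 5 in kdrl-negative and 8 in kdrl-positive cells of DP 1, and 6 and 6 in those of DP 2. Of 14 tested pan-endothelial genes 0 were called, where few genes of any kind were. Across 7035 genes edgeR called 1 higher in kdrl-positive cells, scpp8, and 1 lower, hsp70.1 (0.0142% each). Without the exceptional cell neither passed the threshold, while the log2 fold changes moved from 2.43 to 2.02 for scpp8 and from -2.27 to -2.18 for hsp70.1.

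The cells were chosen by their counts of kdrl, cdh5 and npsn, and these values are given as a description. Near the limits, the nearest cells had 19947 and 20333 counts, 493 and 696 genes, and 274 and 2666 CPM of npsn. In DP 1, 6 kdrl-positive cells held 1 kdrl count, 1 cell held 2 and 2 cells held 3, which made 14 counts or 5.47 CPM in the sum. In DP 2, 2 cells held 1 count, 4 held 2, 2 held 3 and the other three held 4, 6 and 11, which made 37 counts or 34.5 CPM. The DP 2 cells thus carried more kdrl per count of RNA than those of DP 1, and the median per cell was 36.0 CPM against 5.09 CPM. In cdh5-positive cells of DP 2 the median was 199 CPM, and the 4 cells held 12 to 35 counts.

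Counts of kdrl also occurred in npsn-high cells, which carry the genes of neutrophils, a cell type not known for kdrl. In DP 1, kdrl was found in 23.1% of the cells of the rule (9 of 39, Clopper-Pearson 95% interval 11.1 to 39.3, median depth 123677) and in 3 of 5 npsn-high cells (60%, interval 14.7 to 94.7, median depth 324048). The 3 npsn-high cells held 3, 2 and 1 kdrl counts, at most 9.02 CPM. The DP 1 kdrl-positive cells at 9.85 CPM (1 count) and 63.6 CPM (3 counts) stood above them. At full depth the DP 1 share was not above that of the npsn-high cells, which were fewer and deeper and came from the same sort. Whether the kdrl counts of DP 1 come from expression of kdrl in these cells was not tested. When every cell was thinned to 20000 counts, 2 of 39 DP 1 cells still held kdrl (5.13%, or 2.56% with a second seed). So did 0 of 5 npsn-high cells of DP 1, with an interval that reaches up to 52.2%. In DP 2, kdrl was found in 45.8% of the cells of the rule (11 of 24, interval 25.6 to 67.2, median depth 62126.5), in 37.5% after thinning (25% with that seed), and in 0 of 1 npsn-high cell, which sets no limit. Thinning kept kdrl in 22.2% of the kdrl-positive cells of DP 1 and 81.8% of those of DP 2, and with the second seed in 11.1% and 54.5%. These intervals cover counting error only.

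**Figure D1:**
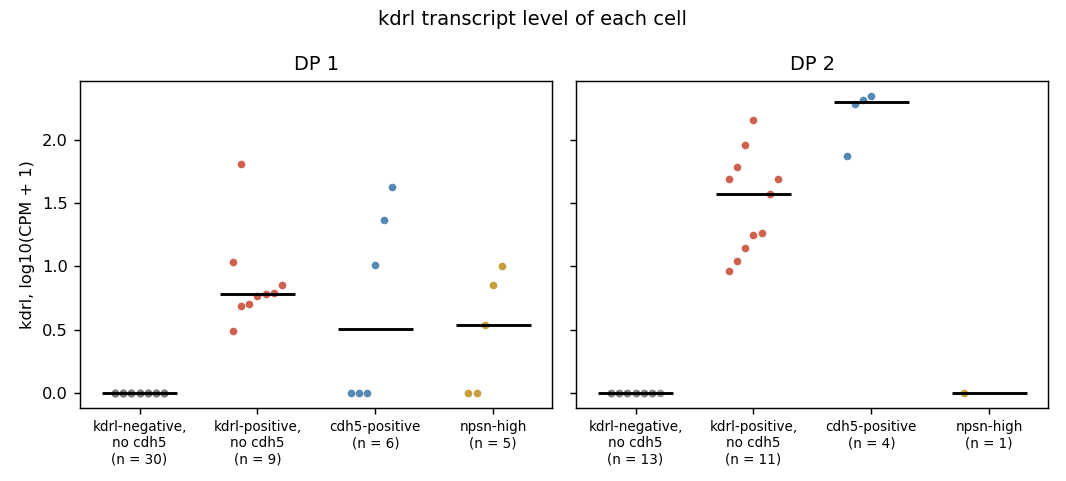
kdrl level of each cell as log10(CPM + 1) by library (panels) and class of cell, with a bar at the median. kdrl-negative cells lie at 0 by the rule, the kdrl-positive cells of DP 1 overlap the npsn-high cells, and those of DP 2 lie mostly below its cdh5-positive cells.

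The sides differed in depth. Median counts per cell were 106378 in kdrl-negative and 196278 in kdrl-positive cells of DP 1, and 47974 and 83669 in those of DP 2. Summed by library and side, they gave 4174498 and 2557353 counts in DP 1 and 1144908 and 1072768 in DP 2. The deepest cell made up 18.8% to 29.1% of its sum. The other gene of the sort, spi2, codes for a DNA-binding protein of the ETS family. It was detected in 24 of 30 kdrl-negative and 9 of 9 kdrl-positive cells of DP 1, and in 11 of 13 and 11 of 11 cells of DP 2. Its summed level was 225 CPM in kdrl-negative and 140 CPM in kdrl-positive cells of DP 1, and 417 and 308 CPM in those of DP 2. The difference did not pass the test (log2 fold change -0.53, SE 0.36, adjusted p = 1). The labels call the sorted cells HECs. Of the hemogenic and stem cell list, runx1 was found in 2 of 20 kdrl-positive and 5 of 43 kdrl-negative cells. Other members were rarer, such as kita in 0 and 1, or about as rare, such as gata2b in 2 and 4. Others were more frequent, such as myb in 20 and 37 and lmo2 in 13 and 30. The pan-endothelial gene pecam1 was found in 5 and 10.

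The endothelial genes counted per cell were 56 genes of the pan-endothelial, arterial and caveolae lists present in the table. After thinning to 20000 counts, kdrl-negative cells of DP 1 held a median of 3 of them (range 0 to 8) and kdrl-positive cells held 3 (1 to 5). In DP 2 the kdrl-negative cells held 4 (2 to 7) and the kdrl-positive cells 4 (1 to 28). The upper end was 1 cell, and without it the DP 2 kdrl-positive cells held 3.5 (1 to 6). The npsn-high cells of DP 1 held 3 (2 to 4), so the medians of both sides of DP 1 equalled that of the npsn-high cells. The cdh5-positive cells held 7.5 (3 to 26) in DP 1 and 15.5 (15 to 17) in DP 2, and these cells were set apart by cdh5 itself. The second seed gave medians of 3 on both sides of both libraries. Over the 63 cells the Spearman correlation of kdrl with the number of endothelial genes was 0.02, and with total counts 0.13, as a description of cells that share 2 libraries.

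**Figure D2:**
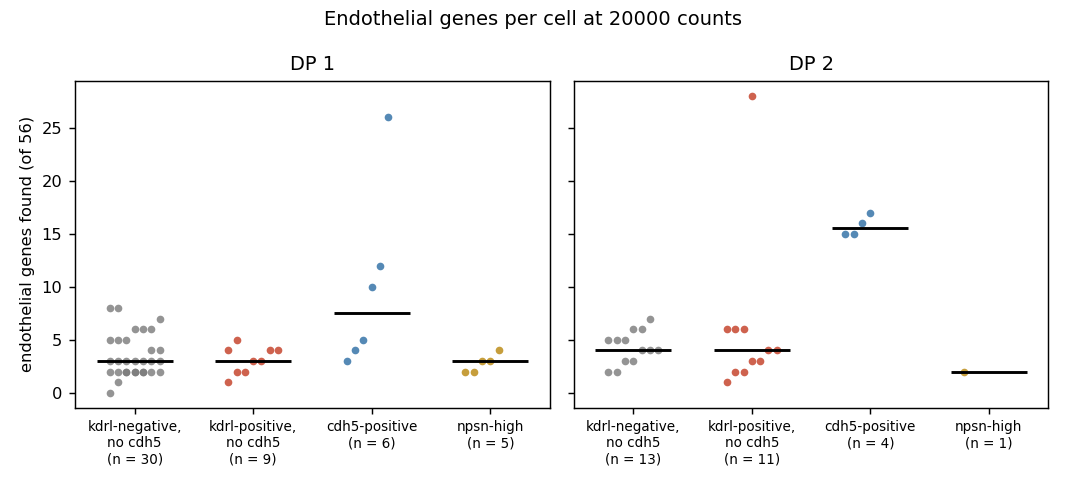
Number of 56 endothelial genes found in each cell after thinning to 20000 counts, by library (panels) and class, with a bar at the median. Except for 1 DP 2 cell with 28 genes, the kdrl-positive cells lie between 1 and 6. The kdrl-negative cells lie between 0 and 8 in DP 1 and between 2 and 7 in DP 2.

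In summed counts the 56 genes reached 564 CPM in kdrl-negative and 310 CPM in kdrl-positive cells of DP 1, against 2934 CPM in its cdh5-positive cells. In DP 2 they reached 522 CPM in kdrl-negative and 1216 CPM in kdrl-positive cells, against 2508 CPM in cdh5-positive cells. In that kdrl-positive sum 69.3% of the counts came from 1 cell, and without it the level was 422 CPM. Of the 56 genes 11 were found on neither side, 34 on both, 8 on the kdrl-positive side only and 3 on the kdrl-negative side only. The 8 were cav2, dlc, esama, esm1, mmrn2a, plvapa, tie1 and vwf, and 5 of them were found in that 1 cell. The 3 were etv2, gja5b and she, each in 1 cell. These counts are a description, since the sides differ in cell number and depth. The same shares were not computed over all genes, so the counts show nothing particular to endothelial genes.

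The exceptional cell was the DP 2 cell with the most kdrl counts, 11 counts or 90.1 CPM in a total of 122141. It held 34 of the 56 genes, 28 of them after thinning, and 7 of the 34 were found in 0 of the other 19 kdrl-positive cells. It led with esm1, a secreted proteoglycan of tip cells, at 144 counts, sox7, an endothelial transcription factor, at 139, the tight junction gene cldn5b at 79 and the water channel gene aqp8a.1 at 61. It also held 53 counts of pecam1, an adhesion receptor, 47 of the chemokine receptor gene cxcr4a, 38 of the Notch ligand gene dll4 and 13 of efnb2a, the arterial ephrin. Its summed arterial level was 2022 CPM. The other 10 kdrl-positive DP 2 cells had a median of 0 and a highest value of 47.3 CPM, and the DP 2 cdh5-positive cells ran from 275 to 446 CPM. The highest kdrl-negative cells stood at 609 CPM in DP 1 and 111 CPM in DP 2. Over the 56 genes the exceptional cell stood at 7401 CPM and the highest kdrl-negative cell, of DP 1, at 3790 CPM. The lack of cdh5 in the exceptional cell allows a level of up to 24.6 CPM (3 counts). Single cdh5-positive cells ran from 5.44 to 238 CPM in DP 1 and from 26.4 to 377 CPM in DP 2. A low cdh5 level was therefore not detectable in it. The same holds for shallower cells, where this limit reached 71.0 CPM on the kdrl-positive side and 148 CPM on the kdrl-negative side.

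Further lists were read in that cell. It held gata2b, a hemogenic regulator, at 33 counts and lmo2, a regulator of blood and vessel fate, at 69. Its hemogenic and stem cell level was 2055 CPM, within the range of the DP 2 kdrl-negative cells (148 to 2469 CPM). It held 0 counts of macrophage and neural genes, and the other kdrl-positive cells of DP 2 had medians of 0 for both. Of 14 epidermis genes the cell held krt18a.1 at 318 counts and krt8 at 263, with the other listed members at 0. Its summed epidermis level was 4757 CPM, against at most 215 CPM in the other kdrl-positive cells of DP 2 and 1418 to 3755 CPM in the cdh5-positive cells of DP 2. The part of these keratins in the result was not tested. The cells were sorted singly and no doublet caller was run.

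Outside that cell the endothelial genes were scattered. At full depth some were found in a larger share of kdrl-positive cells. Thus ptprb was found in 5 of 20 kdrl-positive and 2 of 43 kdrl-negative cells. For cldn5b these counts were 4 and 1, and for arhgef9b 13 and 16. Without the exceptional cell, 4, 3 and 12 of 19 kdrl-positive cells held these genes. The kdrl-positive cells were also deeper at the median. The summed level of arhgef9b was lower on the kdrl-positive side of DP 1 (log2 ratio -2.59) and higher on that of DP 2 (0.93). Shares of fli1b (7 and 19 cells) and ushbp1 (11 and 24 cells) were not larger. Among pan-endothelial genes, fli1a, an ETS transcription factor also used by blood cells, was found in 18 of 20 kdrl-positive and 39 of 43 kdrl-negative cells. Its summed levels were 207 CPM in kdrl-negative and 123 CPM in kdrl-positive cells of DP 1, and 68.1 and 113 CPM in those of DP 2. The libraries thus pointed in opposite directions for fli1a, and its fitted log2 fold change was 0.00 (SE 0.53, adjusted p = 1). The receptor gene tek, whose product binds angiopoietins, was found in 6 and 16 cells, at 28.3 CPM in kdrl-negative and 17.6 CPM in kdrl-positive cells of DP 1 and at 26.2 and 4.66 CPM in those of DP 2. All 5 counts of tek on the kdrl-positive side of DP 2 were those of the exceptional cell.

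The adhesion receptor gene pecam1 gave 70 counts (16.8 CPM) in kdrl-negative and 19 (7.43 CPM) in kdrl-positive cells of DP 1, and 58 (50.7 CPM) and 70 (65.3 CPM) in those of DP 2. Without the exceptional cell its DP 2 kdrl-positive level was 17.9 CPM. The transcription factor gene sox7 gave 71 and 1 counts in DP 1 and 49 and 187 in DP 2, where 48 remained without that cell. The DP 1 cdh5-positive cells gave 185 CPM of pecam1 and 168 CPM of sox7. The C-type lectin gene clec14a had more counts on the kdrl-positive side of both libraries, with 4 and 22 counts in DP 1 and 0 and 19 in DP 2. Of these 22 and 19 counts 20 and 18 came from 1 cell each. The cell surface gene ecscr gave 206 and 2 counts in DP 1 and 36 and 53 in DP 2.

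**Figure D3:**
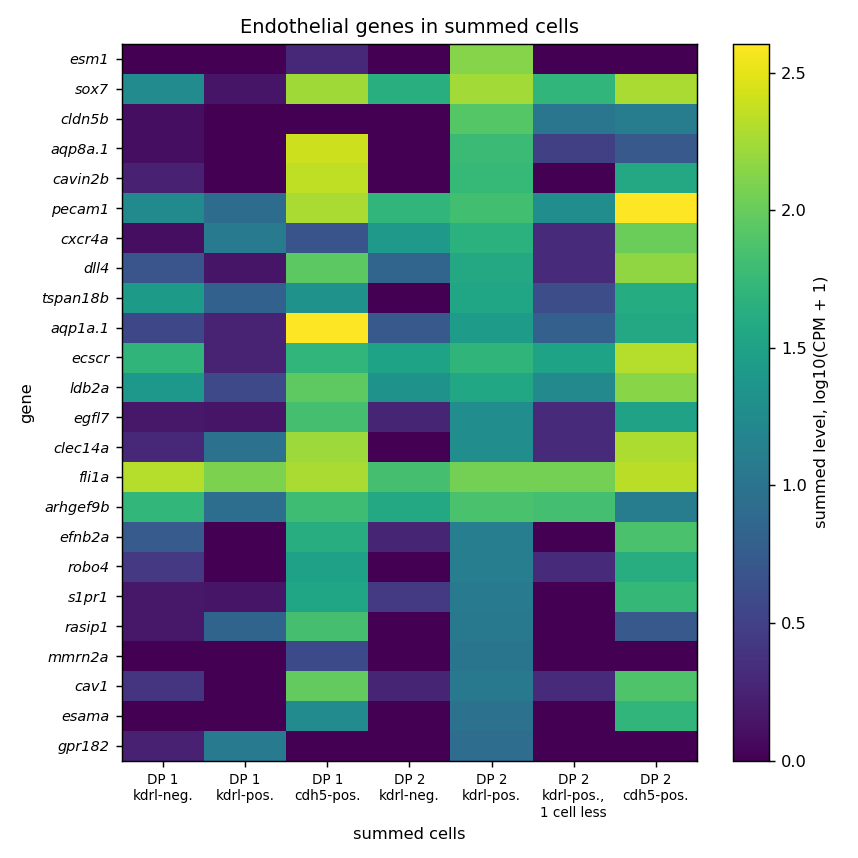
Summed level of the 24 endothelial genes with most counts in the exceptional DP 2 cell, as colour on a log10(CPM + 1) scale, in each library and class and in the DP 2 kdrl-positive cells without that cell. The DP 2 kdrl-positive column is bright for esm1, sox7 and cldn5b, and the column with 1 cell less is close to the kdrl-negative columns for most genes.

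Among arterial genes, dll4 gave 16 and 1 counts in kdrl-negative and kdrl-positive cells of DP 1 and 7 and 39 in those of DP 2, of which 38 were the exceptional cell's. The Notch receptor gene notch1b gave 55 and 39 counts in DP 1 and 0 and 0 in DP 2. All 13 kdrl-positive counts of efnb2a came from the exceptional cell. Among genes of caveolae and water channels, cav1, the coat protein of caveolae, gave 6 and 0 counts in DP 1 and 1 and 11 in DP 2, of which 10 were in the exceptional cell. The cell thus supplied most of the kdrl-positive counts of dll4 and cav1.

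For the test across genes, counts were summed per library and side and compared with edgeR's quasi-likelihood test with library as a block and Benjamini-Hochberg adjustment, which leaves 1 residual degree of freedom. Of 7035 tested genes 1 was called higher (0.0142%) and 1 lower (0.0142%) at an adjusted p under 0.05, and 74 (1.05%) and 124 (1.76%) had an unadjusted p under 0.05. Of the pan-endothelial list, 35 genes were in the table, 30 had a count on either side, 14 passed the filter on low counts and 0 were called. The 14 fitted log2 fold changes ran from -2.34 to 4.61 with a median of -0.57, against -0.05 over all tested genes. The libraries disagreed, with a median of -0.91 in DP 1 and 0.74 in DP 2. In cells matched for depth the list's median was -0.05. That match left the depth gap of DP 2 as it was, at 83669 and 47974 counts per cell. Without the filter the list's median was 1.19, and without the exceptional cell it was -1.31. The filter keeps genes by their highest sums, so these medians describe the genes that passed and not the whole list.

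The other vascular lists had 0 called members too. Of 11 measured arterial genes 3 were tested, with a median log2 fold change of 0.24, and of 14 venous and lymphatic genes 3 were tested, with a median of -2.40. The scavenger receptor gene stab1 was part of the latter, with 28 counts in 1 DP 1 cell and 19 counts in 4 DP 2 cells of the kdrl-negative side and 0 counts on the kdrl-positive side. The 2 tested genes of caveolae and water channels had a median of -0.93. The 8 tested VEGF signalling genes had a median of -0.19 and the 8 cell junction genes one of -1.27, among them jam2a, whose product joins neighbouring endothelial cells, found in 10 of 20 kdrl-positive and 27 of 43 kdrl-negative cells (log2 fold change -1.30, unadjusted p = 0.0527). The medians were -0.05 for 4 basement membrane genes, -0.07 for 6 Notch genes, 0.12 for 6 genes of flow and BMP response and 0.35 for 7 genes of endothelial-to-mesenchymal change.

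Among genes of flow response, klf2b, a Krüppel-like factor, was found in 7 of 20 kdrl-positive and 1 of 43 kdrl-negative cells. It gave 0 counts in kdrl-negative and 14 in kdrl-positive cells of DP 1, and 1 and 19 in those of DP 2, of which 10 were the exceptional cell's. The related gene klf2a gave 32 and 16 counts in DP 1 and 4 and 72 in DP 2, so the libraries differed in direction. Another Krüppel-like factor gene, klf6a, gave 718 and 230 counts in DP 1 and 430 and 201 in DP 2, and was fitted lower (log2 fold change -0.94, SE 0.40). None of these was called, with unadjusted p of 0.104 for klf2b, 0.208 for klf2a and 0.0254 for klf6a.

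The hemogenic and stem cell list showed no called member, where 1 of all 7035 tested genes was called in each direction. Of 24 measured genes 22 had a count and 17 were tested, with log2 fold changes from -1.87 to 2.08, a median of -0.07 and 0 unadjusted p under 0.05. The blood regulator myb was found in 20 of 20 kdrl-positive and 37 of 43 kdrl-negative cells. Its summed level was 311 CPM in kdrl-negative and 394 CPM in kdrl-positive cells of DP 1, and 131 and 143 CPM in those of DP 2 (log2 fold change 0.27, SE 0.39, adjusted p = 1). The level of myb thus differed more between the libraries than between the sides. The hemogenic regulator runx1 gave 47 and 8 counts in DP 1 and 13 and 7 in DP 2, and gata2b gave 39 and 0 counts in DP 1 and 9 and 41 in DP 2. Of these, 38 of runx1 in DP 1 and 33 of gata2b in DP 2 came from 1 cell each. The transcription factor gene gfi1aa, a repressor needed for release of blood cells in mice, gave 53 and 47 counts in DP 1 and 7 and 7 in DP 2. Hemogenic genes were therefore present on both sides.

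**Figure D4:**
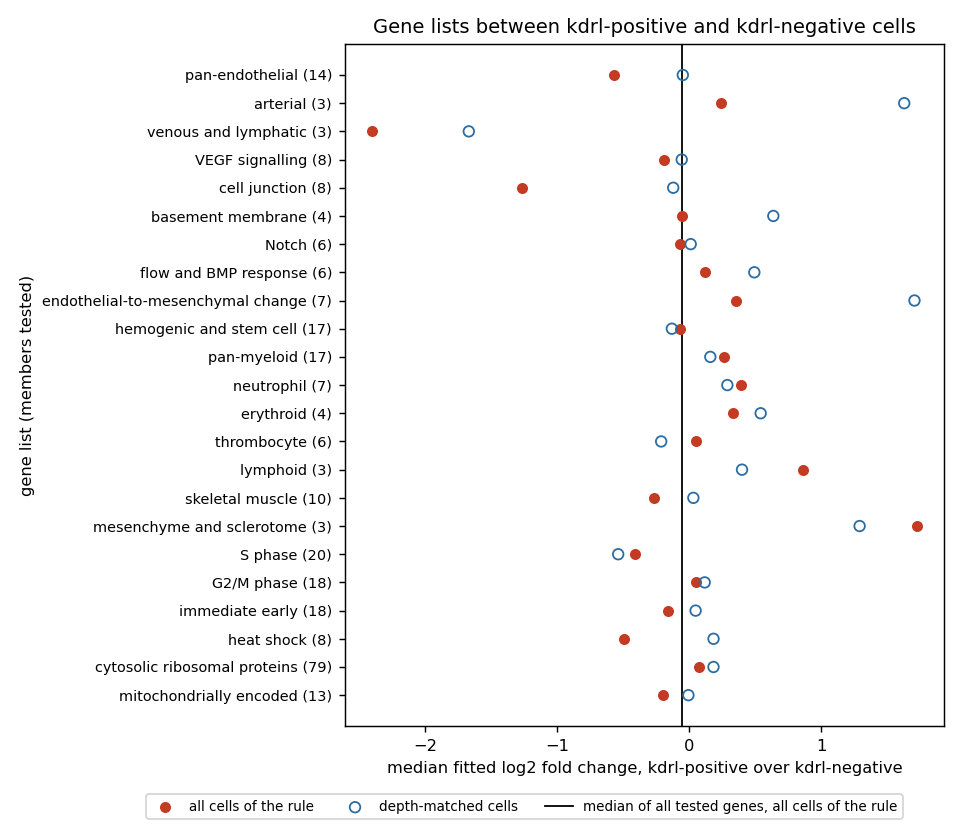
Median fitted log2 fold change, kdrl-positive over kdrl-negative cells, of each list with 3 or more tested members (number in brackets), in all cells of the rule (filled) and in depth-matched cells (open). The line marks the median of all tested genes, -0.05, and the pan-endothelial list moves from -0.57 to -0.05 with the match.

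The called genes were scpp8 and hsp70.1. The gene scpp8, of the secretory calcium-binding phosphoprotein family, gave 245 counts (58.7 CPM) in kdrl-negative and 492 (192 CPM) in kdrl-positive cells of DP 1, and 82 (71.6 CPM) and 664 (619 CPM) in those of DP 2. It was higher in both libraries (log2 fold change 2.43, SE 0.42, adjusted p = 0.0187). The 311 counts of 1 DP 1 cell made up 63.2% of that sum, and in DP 2 the exceptional cell gave 332 counts and another cell 231. It was found in 7 of 9 kdrl-positive and 18 of 30 kdrl-negative cells of DP 1, and in 9 of 11 and 8 of 13 cells of DP 2, and the ranges of the sides overlapped. In DP 1 the highest kdrl-negative cell stood at 827 CPM of scpp8, above the highest kdrl-positive cell at 502 CPM. In DP 2 the highest kdrl-negative cell stood at 1188 CPM, below 2 kdrl-positive cells at 2718 and 1913 CPM. The cdh5-positive cells held it at 274 CPM in DP 1 and 363 CPM in DP 2. Without the exceptional cell the log2 fold change was 2.02 and the adjusted p 0.572.

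The heat shock gene hsp70.1, whose counts may be shared with its near-identical copies, gave 70 counts (16.8 CPM) in kdrl-negative and 4 (1.56 CPM) in kdrl-positive cells of DP 1, and 956 (835 CPM) and 270 (252 CPM) in those of DP 2. It was lower in both libraries (log2 fold change -2.27, SE 0.42, adjusted p = 0.022). In DP 2, 506 and 347 of the kdrl-negative counts came from 2 cells. In depth-matched cells it was not called (log2 fold change -1.29), and without the exceptional cell, which held 6 of the 270 counts, the log2 fold change was -2.18 and the adjusted p 0.572. The 12 heat shock genes summed to 657 CPM in kdrl-negative and 609 CPM in kdrl-positive cells of DP 1 and to 7872 and 3290 CPM in those of DP 2. They thus stood higher in DP 2. Of 8 tested members 1 was called, hsp70.1, where 1 of all 7035 tested genes was called lower (0.0142%). At an unadjusted p under 0.05 in the edgeR test, 3 of the 8 were lower and 0 higher. Over all tested genes these shares were 1.76% and 1.05%.

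**Figure D5:**
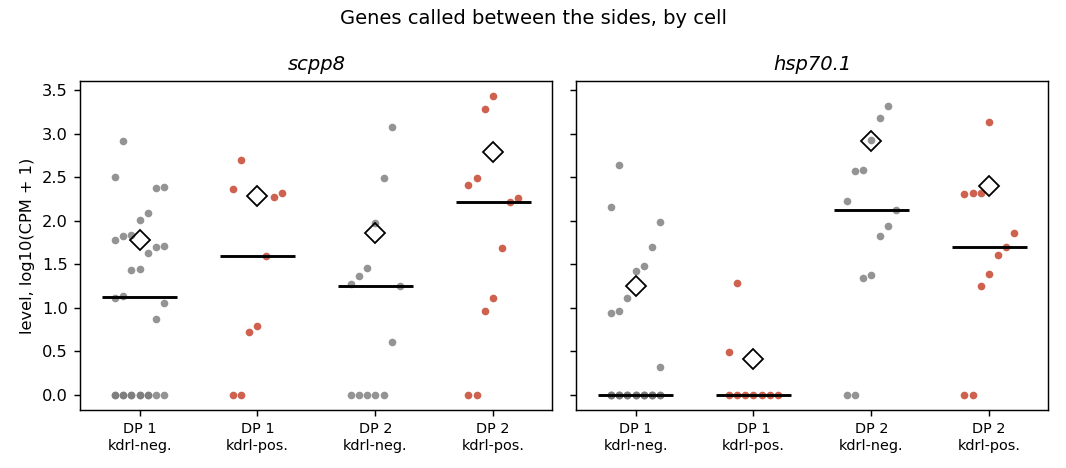
Level of scpp8 and hsp70.1 in each cell as log10(CPM + 1), by library and side, with a bar at the median of cells and a diamond at the level of the summed counts. The sides overlap in both libraries, and the diamonds lie above most cells where few cells hold most counts.

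The next genes by p did not pass the test. The 7 fitted higher were rgcc, rbp5, zgc:162730, actb2, pdia2, MCUR1 and lyz, with adjusted p from 0.110 to 0.525, and the 7 fitted lower were tuba1a, elavl3, si:ch73-335l21.4, mcm10, rnls, hsp70l and stmn1b, with adjusted p from 0.110 to 0.777. Most rested on few cells. The cell cycle regulator gene rgcc gave 2 and 41 counts in DP 1 and 8 and 136 in DP 2, the 41 from 1 cell and 95 of the 136 from the exceptional one. MCUR1, which encodes a regulator of mitochondrial calcium uptake, gave 36 counts in 2 DP 1 cells and 49 in 4 DP 2 cells of the kdrl-positive side and 0 on the other. The replication factor gene mcm10 gave 67 counts in 9 DP 1 cells and 49 in 4 DP 2 cells of the kdrl-negative side and 0 on the other. Lysozyme, lyz, gave 808 and 1793 counts in DP 1 and 1499 and 1576 in DP 2, of which 1485, 1436 and 1416 counts of the last 3 sums came from 1 cell each.

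The neuronal genes tuba1a and elavl3 were called lower in the depth-matched comparison, where 1 of 6741 genes was called higher (scpp8, 0.0148%) and 2 lower (0.0297%), and 107 (1.59%) and 114 (1.69%) had an unadjusted p under 0.05. In DP 1, 387 of 397 kdrl-negative counts of tuba1a and all 165 of elavl3 came from 1 cell, which also held 226 of 229 counts of stmn1b. In DP 2, 61 of 64 counts of elavl3 came from 1 cell. The neural list summed to 134 and 87.3 CPM on the kdrl-negative sides and to 2.0 and 9.3 CPM on the kdrl-positive sides. Their part in the result was not tested.

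Blood lists showed 0 called members, where 1 of 7035 tested genes was called in each direction. At an unadjusted p under 0.05 in the same test, 2 of 17 pan-myeloid genes were higher and 0 lower. Of 7 neutrophil genes 2 were higher and 1 lower. The erythroid, thrombocyte and lymphoid lists had 0. Over all tested genes these shares were 1.05% higher and 1.76% lower. The 17 tested pan-myeloid genes had a median log2 fold change of 0.26 and the 7 neutrophil genes one of 0.39, the latter made of 1.36 for DP 1 and -0.51 for DP 2. Neutrophil genes summed to 900 CPM in kdrl-negative and 2623 CPM in kdrl-positive cells of DP 1, and to 2829 and 2495 CPM in those of DP 2. The medians of cells were lower, at 754 and 1350 CPM in DP 1 and 801 and 646 CPM in DP 2. The highest cells stood at 1792 and 8127 CPM in DP 1 and at 34349 and 15654 CPM in DP 2. The npsn-high cells of DP 1 summed to 36820 CPM and ran from 22194 to 46524 CPM. The highest kdrl-negative cell of DP 2 thus lay within their range. Macrophage genes had 0 tested members. The 20 S phase genes had a median of -0.41 and the 18 G2/M genes one of 0.05, and the 79 ribosomal protein genes one of 0.07, all with 0 called.

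The 5 genes whose level followed kdrl most closely over the 63 cells, by Spearman correlation among 6128 genes found in at least 10 of them, were hadh (0.53), tpt1 (0.50), TSTD1 (0.50), rpl10a (0.46) and eef1b2 (0.44). None was on an endothelial list. Most genes of the pan-endothelial, arterial and caveolae lists were found in fewer than 10 cells and were not ranked, so this says little about them. These cells share 2 libraries that differ in kdrl level, and within DP 1 and DP 2 the values were 0.58 and 0.62 for hadh and 0.21 and 0.40 for rpl10a.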

How the data were processed

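The authors deposited whole counts for each gene in each cell, and these were used as they stand. The submitters' processing notes name Trimmomatic 0.36, HISAT2 2.1.0 and GRCz11 for a series of several assays. Of nonzero counts 19.7% were 1 and their median was 8. The counting tool and any collapsing of molecules or use of strand are not stated in the labels or headers.

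Members and gene lists were chosen with earlier results of these data known. The table holds 56 DP 1 and 37 DP 2 cells, 88 with 500 or more genes and 79 also with 20000 or more counts, and 0 pairs were identical. The 36 well numbers shared by the libraries name different cells. Raw counts of each library and side (4 sums) were tested with edgeR 4.0.16 in R 4.3.3 (TMM, filterByExpr, glmQLFit, glmQLFTest, two-sided), with library as a block and without kdrl, cdh5 and npsn. The default quasi-likelihood method was kept as the main test after the counts of calls by it and by the newer method had been seen. The fits were tested on simulated data. SEs were taken as the size of the log2 fold change over the square root of F. DESeq2 1.42.0 was an alternative. For depth matching each kdrl-positive cell took the nearest unused kdrl-negative cell of its library. The DP 2 medians, 83669 and 47974, were the same with and without the match, so the match did not narrow their gap. Cells were thinned to 20000 counts with seed 1, and seed 2 as an alternative.

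Library pairs the sides, since both hold cells of the same library. No label states separate embryos for DP 1 and DP 2, and variation between the 2 libraries may be technical. With 1 residual degree of freedom, the test shares its estimate of that variation across genes. The p-values therefore rest largely on other genes, and they do not measure variation between embryos. Clopper-Pearson intervals and limits from 3 counts cover counting error only. Named genes included members of the pan-endothelial, arterial, caveolae and hemogenic lists, of which not all are printed. The others were called genes, called members of other lists and the next genes by p up to 8 a direction. The 5 genes most like kdrl were named too. klf2a, klf2b, klf6a, jam2a and stab1 were named after their values were seen. No doublet caller was run. Gene symbols are those of the table, of which 14456 of 19831 matched Ensembl names.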

Additional observations from a re-analysis of the deposited data

How the results depend on the processing

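Counts of called genes, 1 higher and 1 lower, depended on most settings. They were 0 and 0 with DESeq2 size factors (71 and 97 at an unadjusted p under 0.05), without the replicate block (49 and 110), in cells thinned to 20000 counts (73 and 66) and without the deepest cell of each side (75 and 81). They were also 0 and 0 with edgeR's newer quasi-likelihood method (212 and 241) and without the DP 2 cell with most kdrl counts (52 and 112), both settings added after the data were seen. On simulated data, with changed genes drawn at random from all tested genes, the newer method missed changes of the size seen for scpp8 and hsp70.1. Neither gene was simulated at its own counts and spread over cells. The simulation therefore cannot decide what the lack of calls means for these genes. Counts of called genes were 6 and 4 without the filter and 3 and 2 with DESeq2's Wald test. With kdrl-positive from 3 counts they were 3 and 11. That setting kept 2 kdrl-positive cells of DP 1, and 1 of them made up 92.9% of their summed counts. The calls were 3 and 3 with npsn under 100 CPM, and 3 and 3 with 50000 or more counts. The depth-matched calls, 1 and 2, became 7 and 6 with 2 neighbours per cell. That setting kept 7 of 11 kdrl-positive and all 13 kdrl-negative cells of DP 2, with medians of 122141 and 47974 counts. It was thus not matched for depth in DP 2. The depth-matched calls were 0 and 0 without the replicate block. Without the DP 2 cell with most kdrl counts they were 0 higher, with 2 still called lower. The pan-endothelial median, -0.57, was 1.19 without the filter, -1.31 without that DP 2 cell, -1.06 in thinned cells, 0.03 without the block and -0.91 to 0.74 in single libraries, which allow no test. With kdrl-positive from 3 counts the log2 fold change reversed to -0.041 for zgc:162730 and to -2.29 for lyz. The cause of these changes was not tested. Depth limits what 1 count of kdrl can show, and a cell at 20000 counts can miss a gene that a deeper one holds. With 1 residual degree of freedom, genes that did not pass the test are not shown to be alike on both sides.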
